A study of Rattus norvegicus with 9 samples.

Results

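Akt1, Akt2, Inpp5d, Plcg2 and Agap2 are 5 genes of phosphoinositide and Akt signalling, read here in RN46A cells treated with sodium valproate (VPA), treated with lithium or left as controls. They were chosen by name from the authors' tables of VPA against control and matched by Ensembl identifier to a table of 32662 genes. All 5 were among the 12719 genes with enough counts to be tested. RN46A is an immortalised line of the embryonic rat raphe, a single line, labelled serotonergic. Every group was grown at 33 °C in 5% serum and differentiated for 72 h at 39 °C in 1% serum. It was then held for 72 h with 0.5 mM VPA, with 0.5 mM lithium or, as controls, with neither named drug. Each group had 3 libraries of polyadenylated RNA, sequenced without strand information, which were numbered 1 to 3 by their titles. Nothing in the labels says that these came from separate cultures, so p-values measure only the spread between libraries, which may be technical.

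Phosphoinositide 3-kinases phosphorylate the membrane lipid PIP2 to PIP3, which recruits the kinase Akt to the membrane, where it is activated. SHIP1, the product of Inpp5d, removes the phosphate of one ring position from PIP3, and phospholipase C gamma, encoded by Plcg1 and Plcg2, splits PIP2 into diacylglycerol and inositol trisphosphate. Lithium inhibits enzymes that recycle inositol phosphates, and valproate inhibits histone deacetylases and also lowers cellular inositol.

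The tables that name the 5 genes list those with small p-values for VPA against control on these same libraries, so the genes were selected on the p-value of that comparison. In the authors' deposited DESeq2 table the adjusted p-values were 1.3e-16 for Agap2, 1.3e-09 for Plcg2, 1.5e-06 for Inpp5d, 0.012 for Akt1 and 0.031 for Akt2. Its highest listed value was 0.05, so Akt2 lay nearest to the limit, on the inside. Differences of the 5 genes between VPA and control libraries are therefore given as a description, with no p-value, and whether a gene was past the threshold there is stated only to show how near it lay. VPA against lithium uses the same VPA libraries and is treated alike. Lithium against control, which shares the control libraries, played no part in the choice and was tested.

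Library totals ran from 9580591 to 13030300 counts, and levels are given in CPM, the usual count-per-depth unit, on TMM-scaled library sizes. Of 12 serotonergic markers only Maob had a name in the tables, at 5.46 to 8.43 CPM in VPA, 0.693 to 1.21 CPM in lithium and 0.868 to 1.45 CPM in control libraries. The label of the line could not be checked further here. Because these are bulk samples, fewer cells of a type and less RNA per cell cannot be told apart.

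Promoter sequences are shown for Inpp5d and Plcg2, because these genes of PIP3 and PIP2 breakdown moved most in opposite directions among the 4 of 5 genes with an entry in RefSeq's promoter table (build GRCr8). Each runs from 250 bases before to 50 bases after the annotated start. The Inpp5d window is chr9:95735283-95735582 and the Plcg2 window chr19:62455946-62456245, on the plus strand. Capitals mark matches on either strand to the GC box GGGCGG, the E-box CACGTG, the TATA box TATAAA and GAGGAA, a core bound by PU.1.
Inpp5d: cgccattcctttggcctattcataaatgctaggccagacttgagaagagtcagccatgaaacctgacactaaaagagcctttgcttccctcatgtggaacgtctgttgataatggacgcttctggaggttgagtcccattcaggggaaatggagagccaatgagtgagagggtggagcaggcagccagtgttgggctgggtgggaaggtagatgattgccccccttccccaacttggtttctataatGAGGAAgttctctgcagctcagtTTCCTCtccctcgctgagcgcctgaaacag
Plcg2: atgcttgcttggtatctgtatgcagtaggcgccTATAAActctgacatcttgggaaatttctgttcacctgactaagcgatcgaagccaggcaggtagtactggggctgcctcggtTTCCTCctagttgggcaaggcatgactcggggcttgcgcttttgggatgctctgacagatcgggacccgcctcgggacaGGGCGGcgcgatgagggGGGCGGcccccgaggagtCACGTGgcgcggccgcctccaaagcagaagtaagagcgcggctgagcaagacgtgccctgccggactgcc
The Inpp5d window held 2 matches to GAGGAA and none to the other motifs. The Plcg2 window held 2 GC boxes, 1 E-box, 1 TATA box and 1 GAGGAA, with no overlap between matches. Among all 33469 promoter windows of this length, 33.1% held a GC box, 6.42% an E-box, 14.2% a TATA box and 27.6% GAGGAA. The GC content was 61.0% for Plcg2, 51.7% for Inpp5d, 56.0% for Akt1 and 49.7% for Akt2, beside a median of 51.7% over all windows. The Akt1 window held none of these motifs and the Akt2 window held 1 TATA box. Such matches describe letters in a window and are not evidence of binding.

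The genes of lipid turnover and the Akt kinases were not altered alike. Plcg2 was 3.88 times as high in VPA as in control libraries and Inpp5d 0.249 times, while Akt1 stood at 0.614 and Akt2 at 0.639 times the control mean. Agap2 was nearly absent without VPA. In the lithium libraries Akt1, Akt2 and Plcg2 averaged within 10% of control, and Inpp5d averaged 1.52 times control. All 5 were called for VPA against control (edgeR, quasi-likelihood, Benjamini-Hochberg adjusted p under 0.05), 3 lower and 2 higher, as were 8.7% of all tested genes. They were called for VPA against lithium too, where 7.93% of genes were. VPA libraries did not overlap the control libraries for any of the 5, which held for 25.5% of tested genes, nor the lithium libraries (29.2%), nor all 6 other libraries at once (20.3%). Since VPA against control chose the genes, these counts carry no weight of their own.

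**Figure D1:**
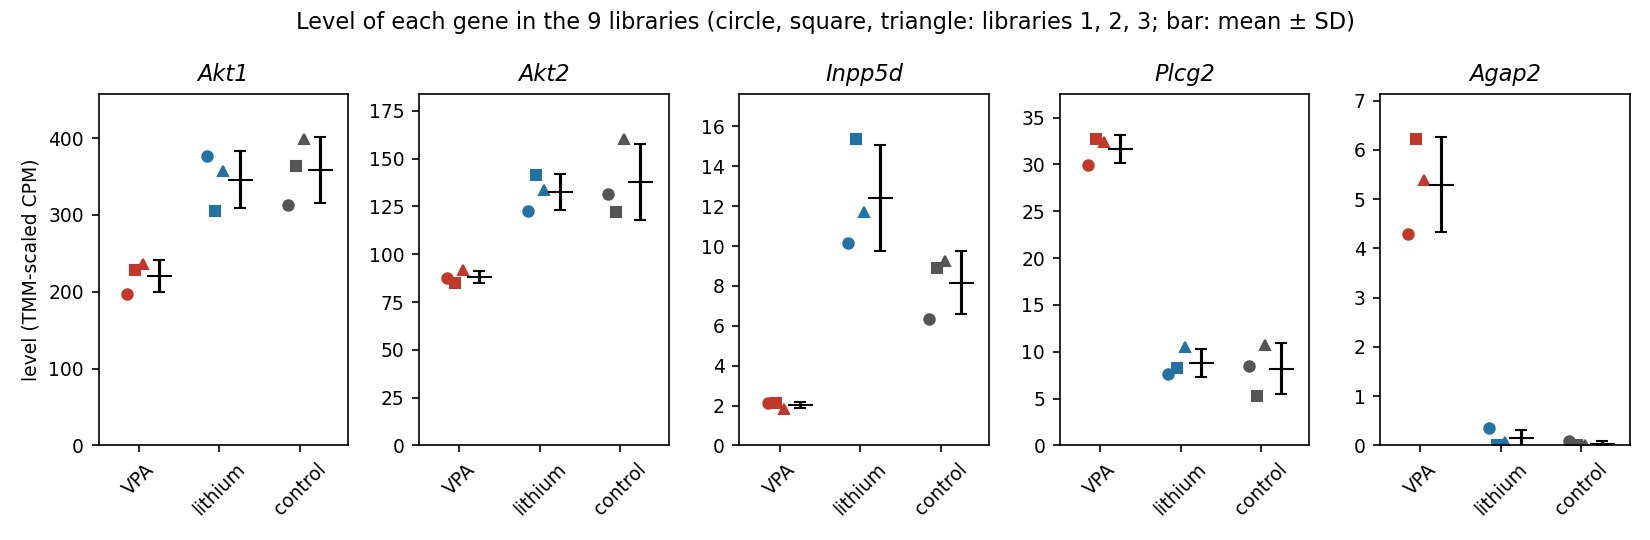
Level of each gene (vertical axis, TMM-scaled CPM from 0) in VPA, lithium and control libraries; circles, squares and triangles are libraries 1, 2 and 3 and the bars show mean ± SD (n = 3). Akt1, Akt2 and Inpp5d were lowest in the VPA libraries, Plcg2 and Agap2 highest, and the lithium libraries lay above the controls for Inpp5d.

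Akt1 (ENSRNOG00000028629) encodes the Akt isoform best known for growth and survival. It was at 196, 228 and 236 CPM in VPA libraries 1, 2 and 3, at 377, 305 and 357 CPM in lithium libraries, and at 312, 364 and 398 CPM in control libraries. The highest VPA library was below the lowest of the other 6, and lithium and control libraries overlapped. The group means were 220 ± 20.9 CPM in VPA, 346 ± 37.1 CPM in lithium and 358 ± 43.3 CPM in control libraries (SD, n = 3 each). The fitted log2 fold change was -0.70 ± 0.17 (SE) for VPA over control and -0.65 ± 0.17 for VPA over lithium.

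Akt2 (ENSRNOG00000018677) encodes the isoform best known for insulin-stimulated glucose uptake. It was at 87.5, 85.0 and 91.6 CPM in VPA libraries 1, 2 and 3, at 123, 141 and 134 CPM in lithium libraries, and at 131, 122 and 160 CPM in control libraries. Again every VPA library lay under the other 6, and lithium and control overlapped. Over the 3 libraries the VPA mean was 88.05 ± 3.29 CPM, the lithium mean 133 ± 9.45 CPM and the control mean 138 ± 19.9 CPM (SD). The log2 fold change was -0.65 ± 0.15 (SE) for VPA over control and -0.59 ± 0.15 for VPA over lithium.

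The kinase genes stood in a similar proportion to each other in all 3 groups. Akt1 counts over Akt2 counts, a ratio that library size does not touch, were 2.5 ± 0.227 in VPA, 2.63 ± 0.460 in lithium and 2.62 ± 0.325 in control libraries (SD, n = 3), and all 3 groups overlapped. Per length, the authors' deposited Cufflinks table gave Akt1 79.9 FPKM with VPA and 134 FPKM in control, and Akt2 39.4 FPKM with VPA and 63.4 FPKM in control, 1 value a group. Akt1 was thus the more abundant transcript per length in either group.

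The Akt1 and Akt2 differences lay close to the threshold in edgeR fits that left out the replicate numbers. For VPA over control both stayed past it in DESeq2. They also did so with the replicate number as a block, on all 9 libraries or on VPA and control alone. Since that comparison chose the genes, these passes carry no weight of their own. For VPA over control Akt1 was no longer past adjusted p = 0.05 in edgeR without VPA 1 (log2 -0.63), VPA 2 (-0.73), control 2 (-0.70) or control 3 (-0.61), or with the 2 groups fitted alone (-0.71). Akt2 was no longer past it without VPA 1 (-0.64), VPA 2 (-0.63), VPA 3 (-0.68), control 1 (-0.68) or control 3 (-0.52), or with the 2 groups alone (-0.65).

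Inpp5d (ENSRNOG00000017020) encodes SHIP1, a phosphatase best known in blood cells and microglia. Reads were few with VPA: 27, 20 and 23 counts in VPA libraries 1, 2 and 3, against 118, 175 and 152 in lithium libraries and 70, 82 and 104 in control libraries. As levels these were 2.11, 2.14 and 1.85 CPM with VPA, 10.2, 15.35 and 11.7 CPM with lithium, and 6.35, 8.90 and 9.24 CPM in control libraries. The 3 groups did not overlap, with VPA lowest, control between and lithium highest. The log2 fold change was -2.00 ± 0.26 (SE) for VPA over control and -2.61 ± 0.26 for VPA over lithium. In VPA over control, 61 of the 12719 tested genes had a lower log2 fold change, and in VPA over lithium 23 did.

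Lithium over control, the comparison that did not choose the genes, gave Inpp5d a log2 fold change of 0.60 ± 0.23 (SE). In edgeR's quasi-likelihood test the unadjusted p was 0.0246 and the adjusted p was 1, so the difference did not pass. No gene of the 12719 did (0%), while 116 (0.912%) had an unadjusted p under 0.05 and DESeq2 likewise called 0 genes. Inpp5d was the 1 member whose lithium and control libraries did not overlap, which held for 3.28% of tested genes, with lithium above control for 1.71% and below it for 1.57%. Without lithium 2 the Inpp5d change was 0.42 and without control 1 it was 0.45, with unadjusted edgeR p of 0.131 and 0.1001. The authors' deposited lithium table, from the same libraries, lists Inpp5d with a log2 fold change of 0.48 ± 0.21 (SE), an unadjusted p of 0.0238 and an adjusted p of 1.00.

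Plcg2 (ENSRNOG00000051986) encodes phospholipase C gamma 2, which acts below immune receptors in B cells and myeloid cells. It was at 29.96, 32.7 and 32.4 CPM in VPA libraries 1, 2 and 3, at 7.58, 8.25 and 10.5 CPM in lithium libraries, and at 8.44, 5.32 and 10.75 CPM in control libraries. VPA libraries lay apart from the other 6, which overlapped. The VPA coefficient of variation was 4.695%, against 17.3% in lithium and 33.4% in control libraries. VPA libraries also held more Plcg2 counts, 305 to 403 against 88 to 136 in lithium and 49 to 121 in control libraries. Counting error is relatively smaller with more counts, and VPA against control chose the gene, so this spread is only a description. The log2 fold change was 1.95 ± 0.25 (SE) for VPA over control and 1.85 ± 0.25 for VPA over lithium.

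Set against each other within a library, Plcg2 counts over Inpp5d counts were 14.2, 15.25 and 17.5 in VPA libraries 1, 2 and 3. The same ratio was 0.746, 0.537 and 0.895 in lithium libraries and 1.33, 0.598 and 1.16 in control libraries. Plcg2 had more counts than Inpp5d in all 3 VPA libraries and in controls 1 and 3, and fewer in control 2 and all 3 lithium libraries. Per length, the authors' deposited Cufflinks table gave Plcg2 6.58 FPKM with VPA and 1.71 FPKM in control, and Inpp5d 0.424 FPKM with VPA and 1.65 FPKM in control. In control cells, then, these genes stood at a similar level per length, and each was well under either Akt gene.

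**Figure D2:**
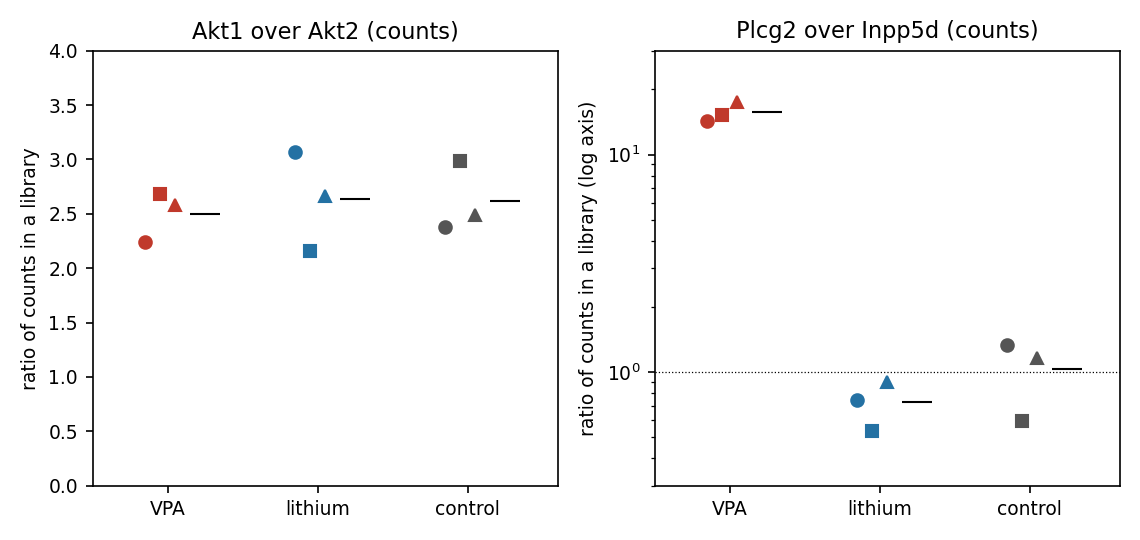
Ratio of Akt1 to Akt2 counts (left, linear axis) and of Plcg2 to Inpp5d counts (right, log axis) within each VPA, lithium and control library; circles, squares and triangles are libraries 1, 2 and 3 and dashes are means. The Akt ratio lay between 2.155 and 3.07 in all libraries, while the Plcg2 to Inpp5d ratio was 14.2 or more in VPA libraries and 1.33 or less in the others.

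Agap2 (ENSRNOG00000025584) encodes PIKE, a GTPase that enhances phosphoinositide 3-kinase and Akt activity and is abundant in brain. It had 55, 58 and 67 counts in VPA libraries 1, 2 and 3, 4, 0 and 1 counts in lithium libraries, and 1, 0 and 0 counts in control libraries. The VPA levels were 4.29, 6.21 and 5.38 CPM, while 3 counts, the floor used for a level near 0, would be 0.231 to 0.263 CPM in a lithium library and 0.267 to 0.326 CPM in a control library. Lithium 1, at 0.345 CPM, was the 1 library without VPA above its floor. VPA over lithium was a ratio of 37.4 (180 against 5 counts), a description only, since the gene was chosen on the VPA libraries. Lithium over control, at 5 counts against 1, was a ratio of 4.38 (exact 95% counting interval 0.49 to 207). No difference was detectable at this depth, and the interval covers counting error only. Agap2 passed the filter on low counts only through the VPA libraries, so it could be tested only if it differed, and its fitted fold change depends on the prior count.

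**Figure D3:**
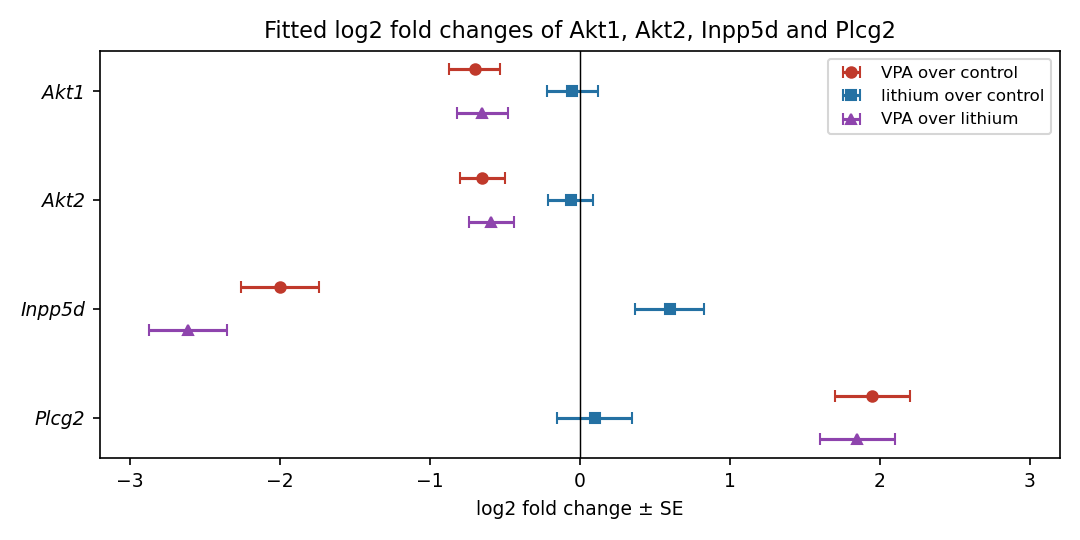
Fitted log2 fold change (horizontal axis) with its SE for Akt1, Akt2, Inpp5d and Plcg2 in VPA over control, lithium over control and VPA over lithium; Agap2 is left out because its counts without VPA were near 0. For lithium over control Akt1, Akt2 and Plcg2 lay within 0.10 of 0 and Inpp5d stood at 0.60, while VPA over control ran from -2.00 for Inpp5d to 1.95 for Plcg2.

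In lithium over control the log2 fold changes of the other genes were -0.05 ± 0.17 for Akt1, -0.06 ± 0.15 for Akt2 and 0.10 ± 0.25 for Plcg2 (SE). Their unadjusted edgeR p-values were 0.769, 0.724 and 0.705, with adjusted p = 1 for each. Akt1 stood at 0.03 without lithium 2 or without control 3, Akt2 at 0.06 without control 3, and Plcg2 at -0.05 without lithium 3 and -0.15 without control 2, so no direction is given for them. A test that misses its threshold does not show that lithium left these transcripts unaltered. Agap2 had an unadjusted edgeR p of 0.177 in that comparison.

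The authors' deposited Salmon and sleuth table, which works on single transcripts and a natural log scale, lists 1 transcript for each of 4 genes and none for Agap2. Its effects of VPA were -0.49 ± 0.14 for Akt1, -0.43 ± 0.14 for Akt2, -1.35 ± 0.22 for Inpp5d and 1.39 ± 0.19 for Plcg2 (SE). On a log2 scale these equal -0.71, -0.62, -1.94 and 2.01, each within 0.1 of the change fitted to gene counts. In the authors' deposited Cufflinks table the log2 ratios, turned here to VPA over control, were -0.74 for Akt1, -0.69 for Akt2, -1.96 for Inpp5d and 1.95 for Plcg2. The authors' deposited DESeq2 table, rounded to 1 decimal, gives log2 fold changes nearer to 0 for 3 of the genes, at -1.7 for Inpp5d, 1.7 for Plcg2 and 3.3 for Agap2, and lists Akt1 at -0.7 and Akt2 at -0.6. These tables rest on the same libraries and are not independent of one another. The authors' deposited Cufflinks table locates Akt1 at chr6:137218375-137239298 and Akt2 at chr1:84400955-84451224. Inpp5d lies at chr9:94745216-94850771 and Plcg2 at chr19:50039440-50173523 in the authors' deposited table. Its build was not given in the sources used here, nor whether its starts count from 0 or 1, so these positions cannot be set beside the GRCr8 windows. In RefSeq's GRCr8 annotation other genes overlap Agap2 (Tspan31), Akt2 (C1h19orf47 and a pseudogene) and Inpp5d (2 long noncoding RNA genes). Where such neighbours overlap, unstranded reads cannot assign a transcript to one of them.

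Of a list of 163 phosphoinositide and Akt pathway genes, 18 had a name with an Ensembl identifier in the tables, and 13 besides the 5 genes were tested. With VPA 8 of the 13 rose, 0 fell and 5 did not pass, against 5.71% of all tested genes rising and 2.99% falling. The authors chose the named genes by p-value on these samples, and 76.7% of the 1299 tested genes with any name were called, so the count is no measure of the pathway. Igf2, 1 of the 8, had 4 counts over the control libraries and 4 over the lithium libraries and passed the filter on low counts only through VPA, so it could be tested only if it differed. The median log2 fold change of the 13 was 1.22, or 1.21 without Igf2, beside 0.90 over tested genes with a symbol and -0.01 over all tested genes.

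Among regulators of phosphoinositide 3-kinase, Pik3r5, the regulatory subunit of the gamma enzyme, was at 4.185 ± 0.585 CPM in VPA and 1.23 ± 0.663 CPM in control libraries. Pik3ap1, the B cell adaptor BCAP, was at 3.29 ± 0.265 CPM in VPA and 1.33 ± 0.0799 CPM in control libraries. Both rose, with log2 fold changes of 1.74 ± 0.42 and 1.30 ± 0.31 (SE). Lyn, a Src family kinase that phosphorylates immune receptors and BCAP, rose by 1.56 ± 0.34, to 6.04 ± 1.33 CPM in VPA against 2.045 ± 0.268 CPM in control libraries. Upstream of the lipid kinase, the neuregulin receptor Erbb3 was at 26.6 ± 1.35 CPM in VPA and 5.44 ± 1.65 CPM in control libraries, a rise of 2.28 ± 0.25 on the log2 scale. The growth factor Igf2 was at 11.6 ± 0.892 CPM in VPA, with 0.126 ± 0.0488 CPM in control libraries, a level of few counts.

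Of the other phospholipases, Plcd4 rose by 1.21 ± 0.28, at 56.8, 97.7 and 43.45 CPM in VPA libraries 1, 2 and 3 and 22.3, 27.1 and 35.8 CPM in control libraries. Plce1, which couples Ras to phospholipase activity, had a log2 fold change of 1.74 ± 0.55 and did not pass. Among list genes placed on the Akt axis, the forkhead factor Foxo6 rose by 1.22 ± 0.30 and Ppp2r5b, a regulatory subunit of the phosphatase PP2A, by 0.76 ± 0.19. The pseudokinase gene Trib2 (-0.70 ± 0.22), the Akt-binding Mtcp1 (-1.07 ± 0.36), the lipid phosphatase Mtmr4 (0.61 ± 0.19) and the receptor Pdgfra (0.63 ± 0.26) did not pass. The 8 rises, read with edgeR's adjusted p, came to 4 without VPA 1, 3 without VPA 2, VPA 3 or control 1, and 2 without control 2. With the replicate number as a block on VPA and control alone 10 rose and 2 fell.

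With lithium none of the 13 passed in edgeR or DESeq2, and their median log2 fold change was -0.37, beside -0.04 over tested genes with a symbol and 0.002 over all tested genes. Of the 13, 3 had an unadjusted edgeR p under 0.05: Pik3ap1 (-0.88 ± 0.36), Pdgfra (-0.76 ± 0.28) and Trib2 (-0.52 ± 0.22), singled out after their values were seen, where 0.912% of all tested genes had one. Their number was 0 without lithium 2, 1 without control 1 or with the 2 groups fitted alone, and 4 without lithium 3. Names came in part from the authors' deposited lithium table, whose 137 genes had an unadjusted DESeq2 p of at most 0.0499 on these libraries. A list gene could thus be named for its lithium p, so this count is no measure of the pathway either. In VPA over lithium 8 of the 13 were higher at an adjusted p under 0.05 in edgeR and 0 were lower, where 5.61% and 2.32% of all tested genes were. The median log2 fold change of the 13 was then 1.39, beside 0.87 over tested genes with a symbol and -0.02 over all tested genes. Most names came from lists of VPA differences on these same VPA libraries, so neither the count nor the median measures the pathway. By its title the authors' deposited Cufflinks table holds genes that differ with VPA, so its entries are no measure of the list. Of the 13 it gives Pik3r5, Ppp2r5b, Erbb3 and Igf2 as higher with VPA. Trib2 is lower there (7.04 FPKM with VPA, 11.7 FPKM in control). The authors' deposited Cufflinks table also lists 4 more members of the list without an Ensembl identifier, all given as higher with VPA. They are the lipid kinase Pi4k2b (35.6 FPKM with VPA, 23.0 FPKM in control), Cds1 of phosphatidylinositol synthesis (2.61 FPKM with VPA, 1.295 FPKM in control), the mTOR-binding Deptor (3.26 FPKM with VPA, 1.51 FPKM in control) and the pseudokinase gene Trib1 (12.1 FPKM with VPA, 6.48 FPKM in control).

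**Figure D4:**
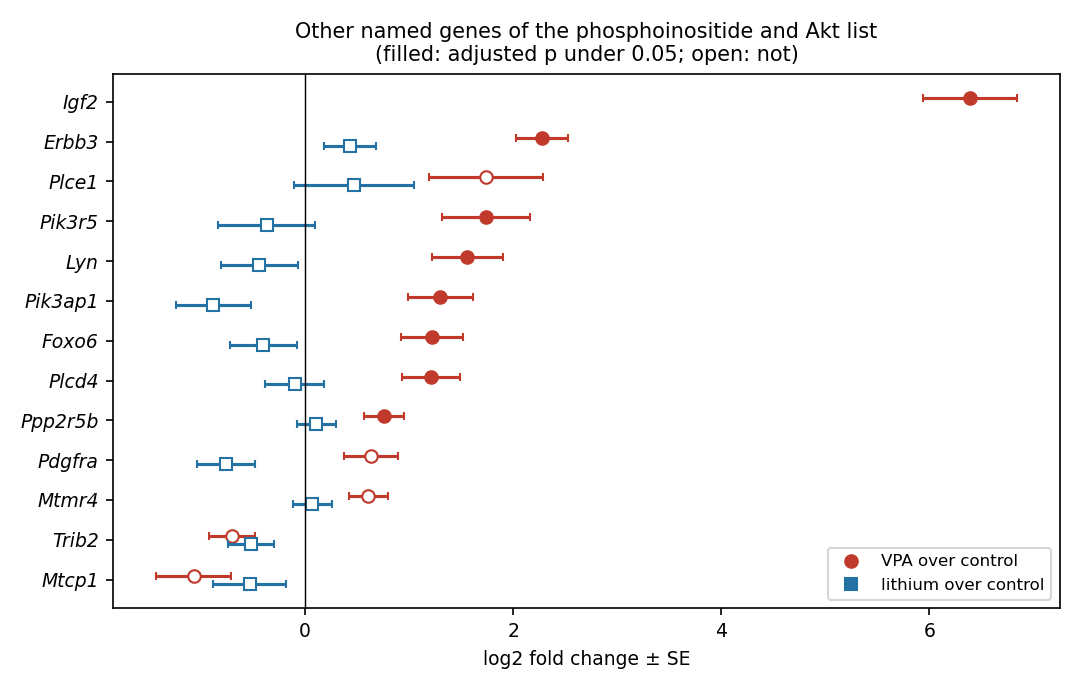
Log2 fold change with its SE (horizontal axis) of the 13 other named list genes in VPA over control (circles) and lithium over control (squares); filled symbols passed an adjusted p of 0.05 in edgeR, and lithium is not drawn for Igf2, whose counts were near 0. The 8 filled symbols all belong to VPA over control and lie to the right of 0.

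Inpp5d, Plcg2, Pik3ap1 and Lyn are best known in blood cells, and markers of those cells were read beside them. Of 19 haematopoietic and microglial markers 5 had a name, of which 3 rose and 1 fell with VPA. That share is near the 76.7% of all named tested genes that were called, since the names come mostly from lists of VPA differences. Their summed level was 52.9 to 95.5 CPM in VPA, 33.95 to 51.6 CPM in lithium and 36.0 to 47.9 CPM in control libraries. The integrin subunit Itgb2 was at 6.63 to 15.5 CPM in VPA and 1.30 to 2.13 CPM in control libraries, and Lsp1 at 1.25 to 3.11 CPM in VPA and 14.4 to 17.15 CPM in control libraries. No named marker of this list was at 0 in any library, but Lcp1 was near 0 without VPA. It was at 2.14 to 3.695 CPM in VPA, 0.0877 to 0.385 CPM in lithium and 0.0889 to 0.326 CPM in control libraries. Defining markers such as Ptprc, Csf1r and Aif1 had no name in the tables and were not analysed here. Pan-neuronal markers, 8 of 12 named, summed to 104 to 131 CPM in VPA, 27.6 to 35.5 CPM in lithium and 24.4 to 40.2 CPM in control libraries. Fibroblast markers, 7 of 8 named, summed to 4004 to 5542 CPM in VPA, 8111 to 10030 CPM in lithium and 11090 to 13430 CPM in control libraries. Vim, Fn1 and S100a4 made up most of these sums. Col1a1 and Col3a1 were each at most 53.7 CPM in VPA and 285 CPM in control libraries. Glial and neural crest markers, 3 of 8 named and Erbb3 among them, summed to 29.96 to 31.9 CPM in VPA, 10.6 to 12.5 CPM in lithium and 7.49 to 11.6 CPM in control libraries. Erbb3, reported above, made up most of the VPA sum, at 25.4 to 28.1 CPM. With VPA 2 of these 3 rose and 1 fell, S100b, with a log2 fold change of -1.28 over control. Of the fibroblast markers Lum was at 0 in every VPA library, and low in the others, at 0 to 1.29 CPM in lithium and 0.533 to 4.90 CPM in control libraries. The part of these shifts in the values of the 5 genes was not tested.

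The genes whose log2 CPM followed each member most closely over the 9 libraries, by Pearson correlation among 1168 genes with a symbol, were Aldh3b1, Ube2l6 and Ctdsp1 for Akt1 (0.994, 0.993 and 0.991). For Akt2 they were Grin2d, Fmnl1 and Efs (0.980, 0.978 and 0.968), and for Inpp5d Glb1l, Tas1r1 and Nectin4 (0.980, 0.969 and 0.967). For Plcg2 they were Atp6v0a1, Celsr3 and Slc17a7 (0.991, 0.991 and 0.988), and for Agap2 Stk32c, Cyp24a1 and Txnrd3 (0.991, 0.991 and 0.988). The libraries fall into the 3 treatment groups and most named genes were listed for VPA, so many genes came close. Correlations over 0.9 were held by 145 genes for Akt1, 87 for Akt2, 63 for Inpp5d, 344 for Plcg2 and 260 for Agap2. By Spearman correlation the nearest 3 shared 1 gene with these for Inpp5d and 0 for each of the other 4.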

How the data were processed

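Counts, levels and names come from the authors' tables. Polyadenylated RNA was sequenced unstranded, per the series' design. The submitters' processing notes name STAR 2.5.1, Cufflinks 2.2.1, kallisto 0.42.4, CASAVA 1.8 and Salmon 0.6.1, plus sleuth and DESeq2, with no roles; the genome build is not given in the sources used here. The authors deposited raw counts per gene (HTSeq, per the file title; 0 lines name no gene), and a DESeq2 table of log2 fold changes, a test score, a signal of mean normalized counts and p-values, per the file headers. The deposited Cufflinks table holds FPKM and log2 ratios. The deposited sleuth effects are on a natural log scale, since they came to a median of 0.697 times the log2 ratios of Cufflinks in 590 pairs. A table titled for kallisto repeats all 1212 lines of the DESeq2 table and was not used.

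Counts were fitted with edgeR 4.0.16 in R 4.3.3: TMM scaling, a filterByExpr minimum count of 10, and a quasi-likelihood fit with robust estimation that used all 9 libraries and left 6 residual degrees of freedom. Tests were two-sided, with Benjamini-Hochberg adjustment across 12719 genes, and calls were made where the adjusted p was under 0.05. The biological coefficient of variation was 0.22, and the code was tested on simulated data. Replicate pairs differed by more than counting noise (chi-square per degree of freedom 28.8 to 73.1). Members and lists were chosen with earlier results of these data known. Named genes are the 5 members, every tested list gene and the 3 nearest genes per member. Names cover 1384 identifiers. Same-numbered VPA and control libraries deviated together (correlations 0.61, 0.53 and 0.526), so their title numbers were read as pairs. Lithium and control did not (-0.424, -0.0801 and 0.807), nor VPA and lithium (-0.203, 0.0589 and 0.536). The main fit used group means without replicate numbers, which entered only the blocked alternatives. Alternatives were DESeq2 1.42.0, other scalings and filters, blocked and 2-group fits, and leaving out each library.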

Additional observations from a re-analysis of the deposited data

How the results depend on the processing

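For VPA against control 1106 genes were called, 1741 with the replicate block over all 9 libraries, 2408 with the block on these 2 groups alone, and 638 to 1026 without 1 library. For VPA against lithium 1009 were called, 1609 with the replicate block and 544 to 1197 without 1 library. For lithium against control 0 were called under every alternative run. Of the 5 genes, 5 were called for VPA against control, 3 with the 2 groups alone and 3 to 5 without 1 library; for VPA against lithium 5 were called, and 3 to 5 without 1 library. Inpp5d, Plcg2 and Agap2 were called in both VPA comparisons under every alternative run, which is no sign of stability, since the genes were chosen on the VPA libraries and Agap2 passed the filter only through them. Akt2 also missed the threshold for VPA against lithium on library totals and with no filter (log2 -0.57 and -0.60), and Akt1 and Akt2 did so there without any 1 VPA or lithium library. The 8 called list genes for VPA against control became 2 to 8 without 1 library. The block, where the numbers pair VPA with control, changed no call of the 5 genes.

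Lithium changes that never passed turned sign without 1 library. Leaving out libraries gave ranges of -0.14 to 0.03 for Akt1, -0.16 to 0.06 for Akt2, -0.15 to 0.34 for Plcg2, -0.83 to 0.05 for Pik3r5, -0.11 to 0.18 for Mtmr4, -0.24 to 0.10 for Plcd4, -0.04 to 0.87 for Plce1, -0.03 to 0.23 for Ppp2r5b and -0.58 to 0.33 for Igf2. Agap2 ran from 6.46 to 8.91 for VPA against control, where few control counts set the fit. In the lithium fits with 2 groups alone, Agap2 and Igf2 had too few counts to be tested. On library totals all 15 group means of the 5 genes moved by less than 1 SD. The cause of these changes was not tested. With 20 to 27 counts per VPA library, depth limits Inpp5d, and with 5 counts or fewer per group it limits Agap2 without VPA.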
